A study of Arabidopsis thaliana with 12 samples.

Results

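A set of 67 probe sets, of 22746 on the array, was higher on ethylene than in air in ein2, in ein5 and in wild type alike. A probe set is a group of short probes that reads 1 transcript or a few similar ones. The members were chosen by their ethylene minus air difference: at least 0.8 on the log2 scale in each of the 3 genotypes, with both ethylene arrays above both air arrays each time. This choice gave 80 probe sets, and 13 were left out by gene: RTE1, ARL, IAGLU, XTH26, GH9B12, AT5G40590, AT2G39980, AT1G50110, AT2G43140, the cytochrome P450 gene CYP718 and the class III peroxidase genes AT1G49570, AT5G19890 and AT3G49960. Of the 67 members 26 had exactly 1 gene in the platform's annotation, 2 had several genes, from which none was named, and 39 have no entry in the annotation used here and so carry no gene name. The annotation had no entry for 8730 of all 22746 probe sets, a smaller share than among the members. Whether unnamed members include further P450 or peroxidase genes was not tested.

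Ethylene is a gaseous plant hormone that binds receptors in the endoplasmic reticulum. Binding releases the membrane protein EIN2, whose cleaved end lets transcription factors of the EIN3 family accumulate and switch on ethylene-responsive genes. In seedlings kept in the dark the gas shortens the hypocotyl and root, thickens the hypocotyl and tightens the apical hook, and plants without EIN2 show none of this. EIN5 is the 5′ to 3′ exoribonuclease that degrades messenger RNA after its cap has been removed, and seedlings without it respond only weakly.

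Arabidopsis thaliana seedlings in the Columbia (Col-0) background were kept in the dark, and their RNA was profiled on 12 single-colour arrays, 2 for each of 6 groups: ein2 (allele ein2-5), ein5 (allele ein5-1) and wild type, each with 10 ppm ethylene for 4 h or in air. All groups were grown from cold-treated seed. Each mutant is a single allele, and the series text says that experiments were done in duplicate but not whether replicates were grown separately, so the p-values rest on a spread that could be technical alone. The labels conflict. The series text and ein2 air 1 give 3 days of growth at 24 °C. For the remaining 11 samples the description says 5 days at 25 °C. It mentions ethylene for the air samples too, although titles and treatment fields mark them as air and untreated, and the extraction field speaks of mature leaves where the source is given as seedling.

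Levels below are scaled intensities, each array having been set to a common median, and differences are log2 values after an offset of 16, which understates the change of dim probe sets. The ± after a difference is its standard error from the limma fit to all 12 arrays. Replicate arrays differed by 0.19 to 0.21 in the mutant groups, 0.32 in wild-type ethylene and 0.25 in wild-type air, as the median over probe sets. Tissue identity could be checked on few markers. Of the 9 root epidermis and hair markers fixed for the check 2 were measured and named, the expansin genes EXPA7 and EXPA18, of 12 green leaf markers only RCA, the activase of Rubisco, and of 17 markers of other root layers and 10 of seed 0. RCA read 19877 and 21226 in ein2 ethylene, against 19512 and 17758 in ein2 air. It read 19902 and 18310 in ein5 ethylene, against 17252 and 17158 in ein5 air, and 19076 and 34231 in wild-type ethylene, against 14753 and 22069 in wild-type air, and was called in none of the genotypes. The EIN2 and EIN5 genes themselves were not among the named probe sets used here, so the labels were not checked on them.

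The ethylene differences of the members were largest in wild type. Because these values chose the members, they are given without a test. Over the 67 members the median difference was 1.10 in ein2, 1.2 in ein5 and 1.86 in wild type, where the medians of all probe sets were 0.01, -0.05 and 0.02. The highest values were 3.66 in ein2, 3.49 in ein5 and 4.77 in wild type. Among the genotypes wild type had the largest difference for 53 members, ein2 for 7 and ein5 for 7. The smallest lay in ein2 for 34 members, in ein5 for 29 and in wild type for 4.

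The rule by itself was met by few probe sets. On ethylene 4.01% of all probe sets were at least 0.8 higher without overlap in ein2, 2.61% in ein5 and 4.66% in wild type, and 0.352% in all 3. The mirror choice, at least 0.8 lower in all 3 genotypes, was met by 11 probe sets (0.0484%). At the edge of the choice, AT5G50335 entered with 0.82 in ein2 and AT5G55620 with 0.83 in ein5. Just outside were AT1G76470, with 0.77 in ein2, 1.34 in ein5 and 1.99 in wild type, and AT5G42490, with 1.92 in ein2, 0.93 in ein5 and 0.73 in wild type.

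**Figure D1:**
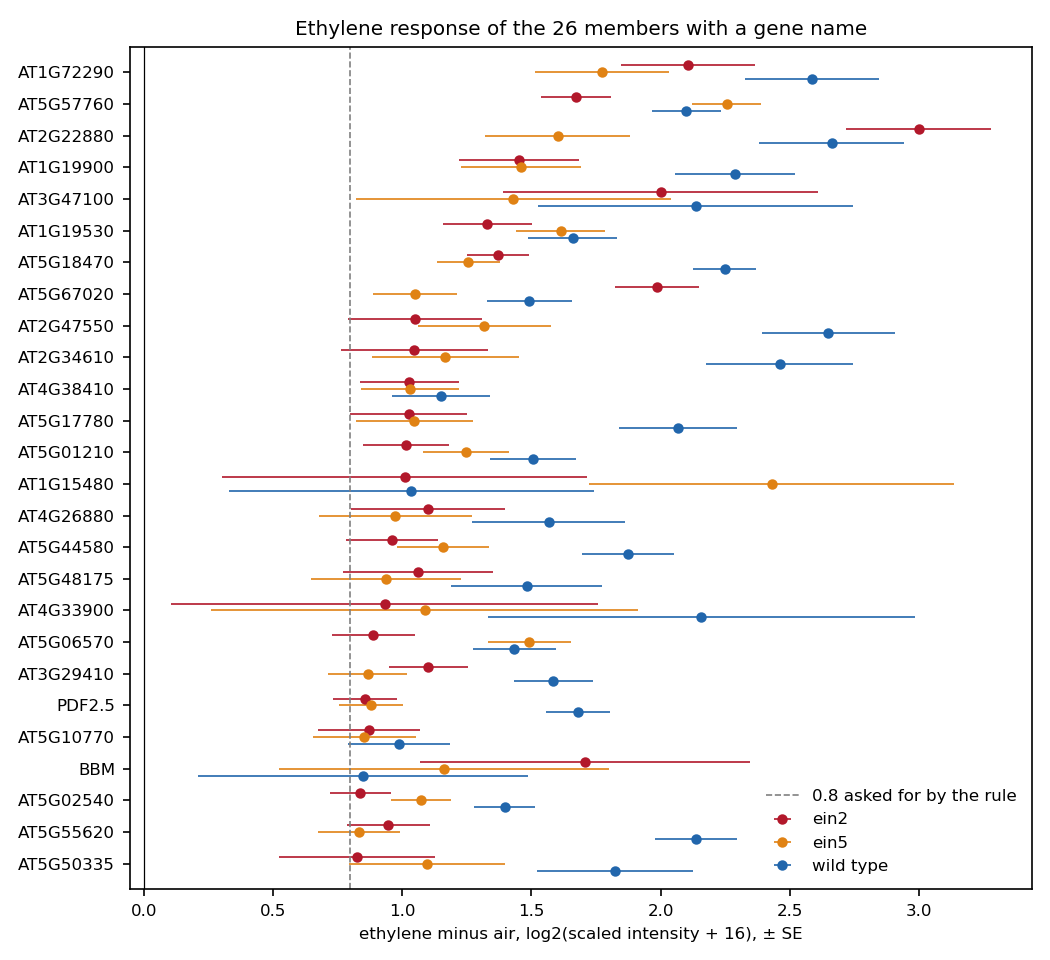
Ethylene minus air on the log2(scaled intensity + 16) scale for the 26 members with a gene name, ordered by their smallest value; points are differences of 2 arrays against 2 in ein2, ein5 and wild type, and bars their standard error. All points lie right of the dashed line at 0.8, which the choice of members required, and the bars of AT1G15480, AT4G33900 and BBM are the widest.

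The named members are taken in turn by the kind of protein they encode, beginning with secreted and cell wall proteins, and no kind was tested for enrichment. For genes known here only by a locus number, the protein families named in the text are general knowledge of the Arabidopsis genome and are not given in the tables used. AT1G72290 encodes a Kunitz-type protease inhibitor, also known as a water-soluble chlorophyll-binding protein, of the apical hook of dark-grown seedlings. It stood at 917 and 1130 in ein2 ethylene, against 303 and 165 in ein2 air. The ein5 arrays held 2910 and 2496 on ethylene, against 670 and 899 in air, and the wild-type arrays 4286 and 4328, against 600 and 824. The gas arrays were thus clear of the air arrays by a difference of 2.11 ± 0.26 in ein2, 1.77 ± 0.26 in ein5 and 2.59 ± 0.26 in wild type. Its ein2 ethylene arrays lay above wild-type air and far below wild-type ethylene.

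AT1G19900, of the galactose and glyoxal oxidase family of wall enzymes, read 5961 and 5572 in ein2 ethylene, against 1948 and 2255 in ein2 air. The ein5 values were 5853 and 7504 on ethylene, against 2517 and 2283 in air, and the wild-type values 13676 and 16626, against 4309 and 2191. The mutants overlapped on the gas, below both wild-type ethylene arrays. AT2G47550, of the pectin methylesterase family, which removes methyl groups from wall pectin, had 771 and 669 in ein2 ethylene, against 306 and 375 in ein2 air. In ein5 it had 855 and 911 on ethylene, against 343 and 345 in air, and in wild type 1592 and 2055, against 329 and 229. The air arrays of the 3 genotypes all lay between 229 and 375, and on the gas wild type stood clear of both mutants. The ethylene difference was 1.05 ± 0.26 in ein2, 1.32 ± 0.26 in ein5 and 2.65 ± 0.26 in wild type.

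AT5G18470, of the curculin-like mannose-binding lectin family, had 2032 and 2030 in ein2 ethylene, against 747 and 804 in ein2 air. The ein5 arrays gave 3327 and 3274 on ethylene, against 1352 and 1395 in air, and the wild-type arrays 6092 and 6436, against 1275 and 1336. No group overlapped another on the gas, in the order ein2, ein5, wild type. The remaining secreted proteins were PDF2.5, a defensin-like cysteine-rich peptide gene, at 0.86 ± 0.12 in ein2, 0.88 ± 0.12 in ein5 and 1.68 ± 0.12 in wild type, AT5G10770 of the aspartyl protease family, at 0.87 ± 0.20, 0.85 ± 0.20 and 0.99 ± 0.20 in the same order, and AT4G26880 of the STIG1 family of small cysteine-rich proteins, at 1.10 ± 0.30, 0.97 ± 0.30 and 1.57 ± 0.30.

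Among regulators, AT2G22880 encodes a small protein with the VQ motif, a family that binds WRKY transcription factors. It had 837 and 764 in ein2 ethylene, against 80.7 and 91.8 in ein2 air. The ein5 arrays read 1038 and 931 on ethylene, against 413 and 236 in air, and the wild-type arrays 3024 and 2720, against 393 and 491. At 3.00 ± 0.28 the ein2 difference was the highest of any named member in that mutant, beside 1.60 ± 0.28 in ein5 and 2.66 ± 0.28 in wild type. Its ein2 air arrays were the lowest of the 3 genotypes. BBM, an AP2-type transcription factor of embryos and root meristems, was dim. It had 78.4 and 157 in ein2 ethylene, against 9.93 and 42.9 in ein2 air. The ein5 arrays held 237 and 169 on ethylene, against 168 and 34.7 in air, and the wild-type arrays 238 and 316, against 138 and 154. Its air arrays lay far apart within each mutant, and the ethylene difference was 1.71 ± 0.64 in ein2, 1.16 ± 0.64 in ein5 and 0.85 ± 0.64 in wild type.

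Among enzymes of metabolism, AT5G17780, of the alpha/beta hydrolase superfamily, read 689 and 748 in ein2 ethylene, against 301 and 394 in ein2 air. The ein5 values were 934 and 1025 on ethylene, against 467 and 464 in air, and the wild-type values 1702 and 2136, against 419 and 467. Its ethylene difference was 1.03 ± 0.23 in ein2, 1.05 ± 0.23 in ein5 and 2.07 ± 0.23 in wild type. The other enzymes were AT5G06570 of the carboxylesterase family, AT5G01210 of the BAHD family of acyltransferases, AT3G29410 of the terpene synthases and AT5G02540 of the short-chain dehydrogenases. Of these AT5G06570 was the one with the widest gap between mutants, 0.89 ± 0.16 in ein2 and 1.49 ± 0.16 in ein5, with 1.43 ± 0.16 in wild type. The BAHD gene AT5G01210 had 11297 and 12565 in ein2 ethylene, against 5884 and 5887 in ein2 air, and 23103 and 35554 in wild-type ethylene, against 9292 and 10955 in wild-type air.

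Among genes known from water and oxygen stress, AT1G19530, a gene known to rise in Arabidopsis under low oxygen, stood at 6106 and 6608 in ein2 ethylene, against 2724 and 2327 in ein2 air. The ein5 arrays gave 10341 and 11826 on ethylene, against 3945 and 3293 in air, and the wild-type arrays 15683 and 14176, against 5823 and 3806. The 3 ethylene groups did not overlap, whereas the ein5 and wild-type air arrays did. AT4G38410, of the dehydrins, hydrophilic proteins of drying and cold tissue, had 1092 and 1082 in ein2 ethylene, against 612 and 450 in ein2 air. In ein5 the values were 2562 and 2127 on ethylene, against 1249 and 1030 in air, and in wild type 1588 and 1721, against 753 and 718. The ein5 arrays were the highest in both gases, and the ethylene difference was nearly equal in the genotypes, 1.03 ± 0.19 in ein2, 1.03 ± 0.19 in ein5 and 1.15 ± 0.19 in wild type.

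The other named members have no role given here. AT5G57760 had 3934 and 3969 in ein2 ethylene, against 1332 and 1133 in ein2 air. The ein5 arrays read 14634 and 12570 on ethylene, against 2991 and 2674 in air, and the wild-type arrays 13751 and 12422, against 2742 and 3361. The ein5 and wild-type arrays overlapped in both gases, and ein2 lay apart from them in both. AT5G67020 had 4335 and 3821 in ein2 ethylene, against 995 and 1035 in ein2 air. The ein5 values were 4289 and 4190 on ethylene, against 2090 and 1988 in air, and the wild-type values 6777 and 9199, against 2386 and 3274. Here ein2 and ein5 overlapped on the gas but not in air, where ein2 was the lower mutant, so the ethylene difference was 1.99 ± 0.16 in ein2, 1.05 ± 0.16 in ein5 and 1.49 ± 0.16 in wild type.

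AT2G34610 read 583 and 388 in ein2 ethylene, against 207 and 239 in ein2 air. In ein5 it read 836 and 669 on ethylene, against 376 and 279 in air, and in wild type 1750 and 1825, against 306 and 317. Wild-type ethylene stood alone at the top. AT5G44580 had 1182 and 1008 in ein2 ethylene, against 587 and 522 in ein2 air. The ein5 arrays gave 3862 and 3406 on ethylene, against 1741 and 1499 in air, and the wild-type arrays 4916 and 3467, against 1078 and 1153. The ein5 air arrays lay above both wild-type air arrays, and ein2 lay lowest in each gas. AT5G50335 had 1649 and 837 in ein2 ethylene, against 804 and 537 in ein2 air. The ein5 values were 2278 and 2382 on ethylene, against 1132 and 1032 in air, and the wild-type values 6737 and 3868, against 1254 and 1630. The ein2 and wild-type ethylene replicates of this gene differed widely, and the gap between gas and air in ein2 was 837 against 804 at its narrowest. AT5G48175 had an ethylene difference of 1.06 ± 0.29 in ein2, 0.94 ± 0.29 in ein5 and 1.48 ± 0.29 in wild type.

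Some members passed the choice on little signal. AT3G47100 had 164 and 160 in ein2 ethylene, against 29.0 and 28.2 in ein2 air. The ein5 arrays held 145 and 110 on ethylene, against 67.9 and 17.2 in air, and the wild-type arrays 123 and 229, against 13.8 and 43.2. Its standard error was 0.61. AT4G33900, of the kelch-repeat proteins, had 82.7 and 7.50 in ein5 ethylene, against 6.54 and 6.81 in ein5 air, so that 1 array carried its ein5 value. AT1G15480 had 298 and 310 in ein2 ethylene, against 288 and 66.9 in ein2 air, and again 1 air array set the difference. The same held in wild type, with 371 and 298 on ethylene, against 287 and 79.7 in air. Its ein5 air arrays were also far apart, at 104 and 17.8, against 386 and 277 on ethylene. Of the 67 members 6 had an air array at or under the offset of 16. With only 1 of the ein2 air arrays as the baseline, 59 members (array 1) or 56 (array 2) still reached 0.8 in ein2. Array 1 is the one whose label gives another age and temperature.

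**Figure D2:**
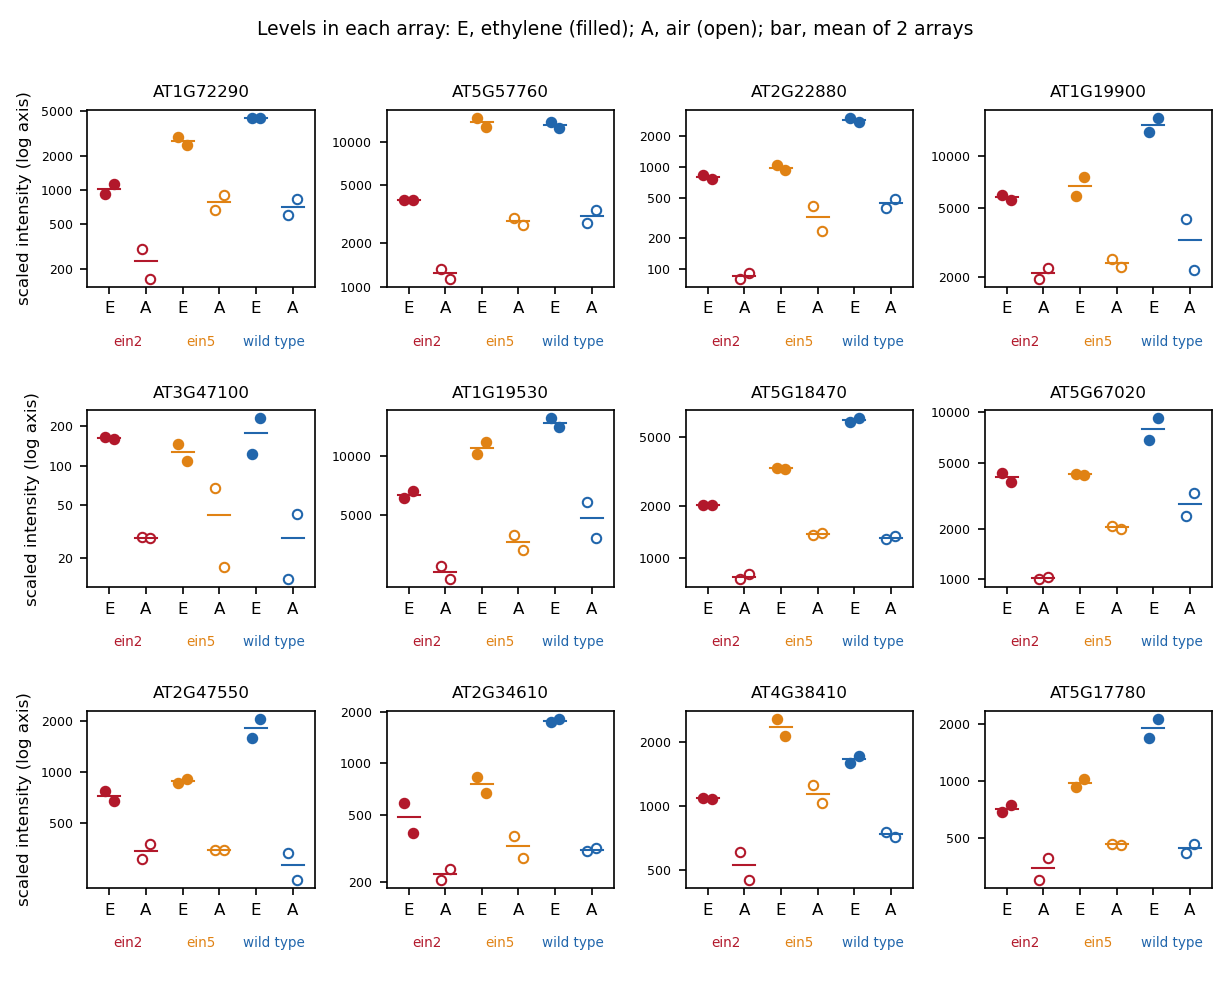
Scaled intensity in each array, on log axes that differ between panels, for the 12 named members with the highest smallest difference; filled points are ethylene (E), open points air (A), bars the mean of 2 arrays, for ein2, ein5 and wild type from left to right. The ethylene points lie above the air points of the same genotype in every panel, as the choice required, and in AT5G57760 the ein2 points lie below those of ein5 and wild type in both gases.

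The unnamed members had medians near those of the named ones. For the 41 probe sets without a single gene the median ethylene difference was 1.14 in ein2, 1.22 in ein5 and 1.87 in wild type, and for the 26 named ones 1.05, 1.16 and 1.75. The member with the highest smallest difference was the unnamed 266364_at, at 3.66 in ein2, 3.49 in ein5 and 4.27 in wild type. It read 2264 and 1950 in ein2 ethylene, against 188 and 122 in ein2 air. The ein5 arrays had 5904 and 5378 on ethylene, against 608 and 387 in air, and the wild-type arrays 10095 and 9842, against 503 and 500.0. The 3 ethylene groups were apart, and only ein2 was apart in air. Of all members 265170_at, also unnamed, had the widest range over the genotypes, with 1.90 in ein2, 0.83 in ein5 and 4.77 in wild type. Of the members 3 have probe set names ending in s_at, which marks probes shared by similar transcripts, so their genes cannot be told apart.

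The next question was whether the members also differed between genotypes in their mean level. For this the levels of a genotype were averaged over air and ethylene and compared in the limma fit over all probe sets. This mean is orthogonal to the ethylene minus air differences, so their noise is not shared, but it comes from the same arrays. At equal air levels a smaller ethylene difference in a mutant also lowers its mean. The calls are therefore not separate from the smaller ethylene differences of the mutants. Of the 67 members 56 were lower in ein2 than in wild type and 0 were higher, at an adjusted p under 0.05 (83.6% of members). Over all probe sets 3.36% were called lower in ein2 and 5.22% higher, 8.59% in all. The members' median was -1.14, against 0.01 over all probe sets, and 63 of 67 lay below 0, against 48.2% of all probe sets. At an unadjusted p under 0.05 the limma fit called 58 members, but the share of all probe sets at that threshold was not computed.

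By gene, the VQ gene AT2G22880 was lower in ein2 by -1.99 ± 0.20 (limma, adjusted p = 1.43e-05) and the Kunitz inhibitor gene AT1G72290 by -1.82 ± 0.18 (adjusted p = 1.51e-05). AT5G57760 differed by -1.51 ± 0.09 (adjusted p = 1.75e-07), AT5G44580 by -1.45 ± 0.13 (adjusted p = 3.42e-06), the terpene synthase gene AT3G29410 by -1.44 ± 0.11 (adjusted p = 8.88e-07) and AT5G50335 by -1.60 ± 0.21 (adjusted p = 0.000203). PDF2.5 was lower by -1.16 ± 0.09 (adjusted p = 9.48e-07) and the lectin gene AT5G18470 by -1.18 ± 0.09 (adjusted p = 7.68e-07). BBM, at -1.62 ± 0.45 (adjusted p = 0.0399), lost its call under 11 alternatives, with adjusted p up to 0.147, AT4G26880 under 8, up to 0.131, and AT4G38410 under 6, up to 0.108. The named members that were not called were AT2G47550 (-0.51 ± 0.18, adjusted p = 0.109), AT5G10770 (-0.39 ± 0.14, adjusted p = 0.114), AT1G15480 (-0.11 ± 0.50, adjusted p = 0.928), AT4G33900 (0.04 ± 0.58, adjusted p = 0.984) and AT3G47100 (0.02 ± 0.43, adjusted p = 0.989).

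The lower level in ein2 was present in both gases for most members, as a description without a test since the single gases were used for the choice. In ethylene the median of the members was -1.39, with 66 of 67 below 0. In air the median was -0.75, with 59 of 67 below 0. The share of all probe sets below 0 was not computed for the single gases. AT5G55620, called lower in ein2 over both gases, was not lower in air, at 0.05 in air and -1.14 in ethylene. Both ein2 air arrays lay below both wild-type air arrays for 52 members, where 22.8% of all probe sets did so. They lay above them for 2, where no share of all probe sets was computed. Both ein2 ethylene arrays lay below both wild-type ethylene arrays for 61 members, against 21.4% of all probe sets. Nevertheless both ein2 ethylene arrays lay above both wild-type air arrays for 44 members (25.6% of all probe sets), among them AT1G72290, AT5G57760, AT2G22880 and AT1G19900. For these 4 genes ein2 on ethylene lay between wild type in air and wild type on ethylene. In ein5 the same held against wild-type air for 59 members (25.0% of all probe sets). Both ein5 ethylene arrays lay below both wild-type ethylene arrays for 53 (23.7% of all probe sets). The choice favoured high ethylene and low air arrays in each genotype. That more members than other probe sets lay above wild-type air therefore follows in part from the choice.

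Fewer members differed between ein5 and wild type. Of the 67 members 27 were lower and 1 was higher in ein5 (background 7.68% lower and 4.62% higher, 12.3% in all; 1051 probe sets higher and 1746 lower), with a median of -0.49 against 0.00 over all probe sets. The balance over all probe sets depended on the scaling: 1687 were called higher and 1217 lower with values as deposited, and 1481 and 1407 with quantile normalization, where the members gave 1 higher and 21 lower, and 1 and 27. The higher one was the dehydrin gene AT4G38410, at 0.55 ± 0.13 (limma, adjusted p = 0.0162). The lower ones included AT3G29410 (-1.02 ± 0.11, adjusted p = 7.97e-05), AT2G22880 (-1.0 ± 0.20, adjusted p = 0.00541), AT1G19900 (-0.77 ± 0.16, adjusted p = 0.00801), AT5G67020 (-0.67 ± 0.12, adjusted p = 0.00225) and AT5G01210 (-0.55 ± 0.12, adjusted p = 0.00861). AT5G57760, at -0.02 ± 0.09 (adjusted p = 0.907), and PDF2.5, at -0.07 ± 0.09 (adjusted p = 0.671), were not called. The calls of AT5G06570, AT1G19530, AT5G02540 and AT5G50335 were lost under 16, 15, 13 and 8 alternatives, and that of AT4G38410 under 3. The count of members was 13 without a variance trend in the fit and 18 without ein5 ethylene 1. In air the median of the members was -0.21, with 46 of 67 below 0, and in ethylene -0.71, with 63 below 0. Both ein5 air arrays lay below both wild-type air arrays for 22 of 67 members, not far above the 25.8% of all probe sets. They lay above them for 10, where no share of all probe sets was computed.

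Between the mutants the members were higher in ein5. Of the 67 members 39 were higher in ein5 than in ein2 and 0 were lower (background 4.92% higher and 9.66% lower, 14.6% in all; 1120 probe sets higher and 2198 lower), with a median of 0.58 against -0.02 over all probe sets. Here too the balance over all probe sets depended on the scaling, with 2030 higher and 1365 lower with values as deposited, and 1559 and 1575 with quantile normalization, where the members gave 45 and 40 higher and 0 lower. The limma fit called 50 members at an unadjusted p under 0.05, and 41 in ein5 minus wild type. The share of all probe sets at that threshold was not computed. AT5G44580 was higher by 1.62 ± 0.13 (adjusted p = 2.66e-06), AT1G72290 by 1.56 ± 0.18 (adjusted p = 0.000101), AT5G57760 by 1.48 ± 0.09 (adjusted p = 4.44e-07), AT4G26880 by 1.18 ± 0.21 (adjusted p = 0.00216), AT4G38410 by 1.09 ± 0.13 (adjusted p = 0.000146) and PDF2.5 by 1.09 ± 0.09 (adjusted p = 3.34e-06). The ethylene differences themselves did not order the mutants: 31 of 67 members had the smaller one in ein5, and the median of ein5 minus ein2 was 0.01. The 3 genotype comparisons share arrays with each other and are not independent.

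**Figure D3:**
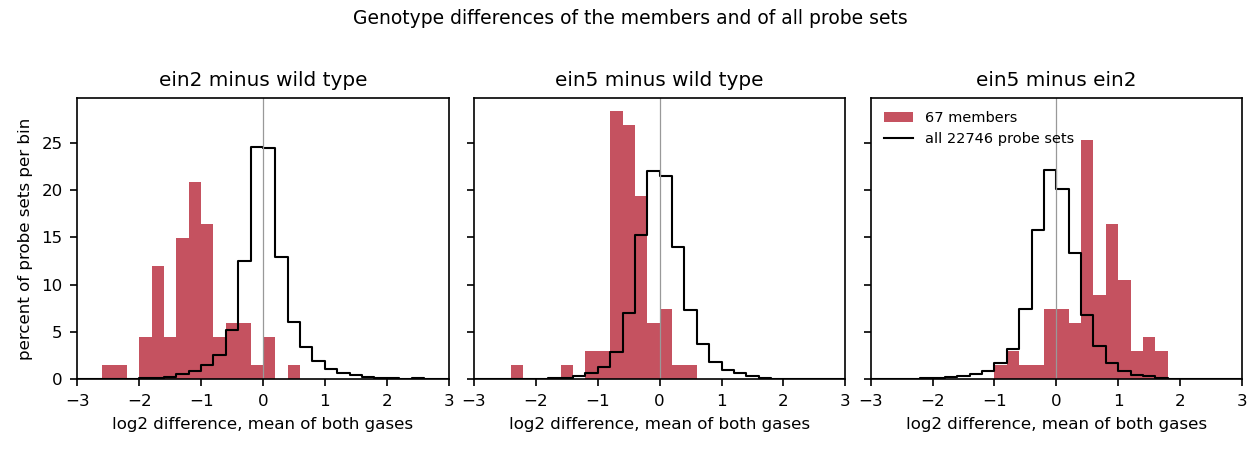
Log2 difference between genotypes, averaged over both gases, for the 67 members (red bars) and all 22746 probe sets (black outline), as a percent of each per bin of 0.2. The members centre on -1.14 for ein2 minus wild type, on -0.49 for ein5 minus wild type and on 0.58 for ein5 minus ein2, whereas all probe sets centre near 0.

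**Figure D4:**
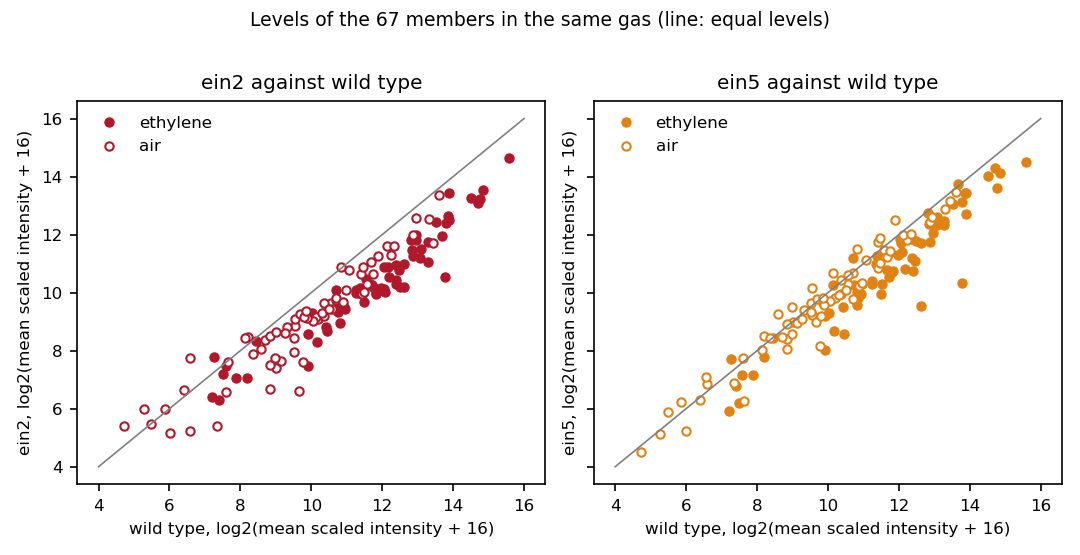
Mean level of the 67 members in ein2 (left) or ein5 (right) on the y axis against wild type in the same gas on the x axis, both as log2(mean scaled intensity + 16); filled points are ethylene, open points air, and the line marks equal levels. In ein2 nearly all ethylene points and most air points lie under the line. In ein5 most air points also lie under the line, but closer to it.

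Few genes of the ethylene pathway could be set beside the members. None of the fixed lists held a named member. The 41 members without a single gene could not be matched to a list. List genes that met the choice had been left out by name. The absence of members from the lists was thus largely fixed in advance. Of 15 genes of ethylene perception and signalling 4 were measured and named. RTE1 and ARL, which met the choice and were then left out by name, made up the calls in each genotype, 2 of 4 higher and 0 lower. The transcription factor gene EIN3 differed by -0.01 ± 0.12 in ein2 (limma, adjusted p = 0.984), -0.04 ± 0.12 in ein5 (adjusted p = 0.948) and 0.03 ± 0.12 in wild type (adjusted p = 0.943). Of all probe sets 0.475% were called higher on ethylene in ein2, 0.774% in ein5 and 3.82% in wild type, and 0.0396%, 0.849% and 6.28% were called lower in the same order. Of 20 genes listed as induced by ethylene 6 were measured and named, and RTE1, ARL and AT2G39980 were called higher in each genotype. These genes too had met the choice before they were left out by name. Their calls, and those of RTE1 and ARL above, were thus nearly fixed in advance and support nothing further. The auxin list held 27 genes, of which 9 were measured and named. Among these 0 were called in ein2 and 0 in ein5, and in wild type 1 was higher and 2 were lower. The higher one was IAA20, an Aux/IAA repressor gene, at 1.55 ± 0.19 (limma, adjusted p = 8.4e-05). The lower ones were HAT2, a homeodomain gene, at -0.44 ± 0.12 (adjusted p = 0.0251) and LBD29, a gene of lateral root formation, at -2.17 ± 0.49 (adjusted p = 0.0109). Ethylene synthesis had 11 listed genes, and only the ACC oxidase gene AT1G12010 was measured and named. It differed by 0.49 ± 0.21 in ein2 (limma, adjusted p = 0.448), -0.64 ± 0.21 in ein5 (adjusted p = 0.188) and -1.45 ± 0.21 in wild type (adjusted p = 0.000435). In the jasmonate and defence list of 13 genes only PDF1.2, a plant defensin gene, was measured and named. It was not called, at -0.55 ± 0.66 in ein2 (limma, adjusted p = 0.852), 0.70 ± 0.66 in ein5 (adjusted p = 0.766) and 1.54 ± 0.66 in wild type (adjusted p = 0.179).

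The summed level of the root hair markers EXPA7 and EXPA18 was 4225 and 3974 in ein2 ethylene, against 3126 and 2578 in ein2 air. It was 4317 and 4057 in ein5 ethylene, against 3026 and 3102 in ein5 air, and 5730 and 7273 in wild-type ethylene, against 5418 and 3972 in wild-type air. Of the 3 root hair genes measured and named, EXPA7 alone was called, in wild type, at 0.81 ± 0.22 (limma, adjusted p = 0.0304). Its difference was 0.79 ± 0.22 in ein2 (adjusted p = 0.177) and 0.57 ± 0.22 in ein5 (adjusted p = 0.276). EXPA18 and SCN1 were not called. In bulk seedlings fewer cells of a type and less RNA per cell cannot be told apart, and the part of root hair cells in the members' differences was not tested.

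By position, 14 of the 26 named members lie on chromosome 5 (53.8%), where 22.4% of the probe sets with 1 gene lie, and 4 on chromosome 1, 3 on chromosome 2, 2 on chromosome 3 and 3 on chromosome 4. No named members are neighbours: the closest, AT1G19900 and AT1G19530, have 34 protein-coding genes between them in the TAIR10.1 gene table. Their genes were short, with a median length of 1441 bases, against 2117 bases over all 13436 probe sets with a length. These are descriptions of the named members alone.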

How the data were processed

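The authors deposited 1 intensity per probe set and array on a linear scale, quantified with GeneChip Suite 3.2 and managed in GeneSpring 4.2, per the labels' protocols. The deposited intensity had a mean, after trimming 2% at each end, of 2480.3 to 2487.2 in all arrays, so the arrays shared 1 scale already. The division by the array median that the series text describes is not visible. Here the median of the values above 10 was made equal between arrays (factors 0.949 to 1.07), 16 was added and log2 taken.

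Genes came from the platform's annotation (13513 probe sets with 1 gene, 13436 of them found in the TAIR10.1 gene table). Sample titles gave the group and replicate number. A model with 6 group means was run in limma 3.58.1 in R 4.3.3 over the 12 arrays (trended eBayes, 6 residual and 7.89 prior degrees of freedom), two-sided, with Benjamini-Hochberg adjustment over 22746 probe sets and calls under 0.05; the script was tested on simulated data. The number of arrays limits the precision. The members and gene lists were chosen with earlier results of these data known, and they support no independent claim of direction on ethylene. All members with 1 gene were named; the 12 with the highest smallest difference and the 6 with the largest called genotype differences were given in every array. Equal replicate numbers did not deviate together (correlations -0.04 to 0.07 over 15 pairs of groups). Alternatives covered scaling, offset, a filter on dim probe sets, variance trend, array weights, the arrays fitted, a replicate block and leaving out each array. Promoter motifs and sequences were not analysed here.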

Additional observations from a re-analysis of the deposited data

How the results depend on the processing

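The lower level of the members in ein2 than in wild type held under all alternatives tried, with 50 to 56 members called, all lower. Leaving out 1 array gave 51 to 56 members called in ein2 minus wild type, 18 to 28 in ein5 minus wild type and 29 to 41 in ein5 minus ein2. Over all probe sets these ranges were 1164 to 2344, 1279 to 3996 and 1748 to 4338. For ethylene minus air they were 40 to 199 in ein2, 106 to 576 in ein5 and 1589 to 2846 in wild type. The number of members by the rule was 65 to 77 on leaving out 1 array, 109 with 0.6 in place of 0.8 and 34 with 1.0. With an offset of 64 it was 51 and with values as deposited 59, of which 58 were among the 67.

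Without a variance trend the calls over all probe sets were 1160 (ein2 minus wild type), 1130 (ein5 minus wild type), 1741 (ein5 minus ein2), 34 (ethylene in ein2), 50 (in ein5) and 1323 (in wild type), and 13 members were called in ein5 minus wild type. With array weights the ethylene calls were 292 in ein2, 867 in ein5 and 1309 in wild type. With only the compared genotypes fitted they were 458 in ein2 and 813 in wild type, and 1740 in ein5 minus wild type. The cause of these changes was not tested. With a replicate block 56, 29 and 39 members were called, a change of no more than 1; no label pairs the samples. No call of a named member reversed under any alternative, whereas differences that were not called could change sign, as for AT3G47100. With 2 arrays per group the median standard error was 0.16 for a genotype difference and 0.23 for an ethylene difference, and differences well above these sizes also missed the threshold, such as -0.51 for AT2G47550 in ein2 minus wild type (adjusted p = 0.109).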
